A study of Mus musculus with 5 samples.

Results

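The ubiquitin-specific proteases, a large family of deubiquitinases, were followed through a lipopolysaccharide time course in mouse macrophages. Members were taken by name: 46 of the 13339 genes listed had a symbol made of Usp and a number, with Usp18, the protease of the ubiquitin-like protein ISG15, left out. All 46 were protein-coding genes under the same symbol in RefSeq (GRCm38.p6). The name brought in Usp6nl, which is a GTPase-activating protein for Rab proteins and no protease. RNA came from bone marrow-derived macrophages of C57BL/6 mice aged 8 weeks, titled WT2 and grown with M-CSF, a macrophage growth factor, for 5 days. These cells had received the TLR4 ligand LPS, from the outer membrane of bacteria, at 100 ng/ml for 4, 8, 12 or 24 h, or were taken at 0 h. Each of the 5 times was 1 library, so there were no replicates, no difference could be tested, and every comparison describes a pair of libraries. Unstimulated cells kept for the same hours were not analysed here, so hours in culture and hours in LPS cannot be told apart.

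Ubiquitin is a small protein that is joined to other proteins by E1, E2 and E3 enzymes, and it marks them for the proteasome, for sorting in endosomes or for assembly into signalling complexes. Ubiquitin-specific proteases are cysteine proteases that take ubiquitin off again or edit its chains. In macrophages the complexes that carry the TLR4 signal to NF-kappaB and to the interferon genes are built on such chains, and deubiquitinases are among the known brakes and tuners of the LPS response.

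The unit is FPKM, that is, fragments for each kilobase of a transcript after scaling to all mapped fragments. Differences are given on log2(FPKM + 1), a scale on which low genes show less than their fold, and a gene counts as apart from a 2-fold difference on that scale. Every call of at least 2-fold higher or lower is made on that scale, while ratios given as numbers are plain ratios of FPKM. A gene can thus pass 2-fold as a plain ratio and not be counted, as Usp36 at 4 h (0.34 of its 0 h value). Counts use genes whose mean over the 5 libraries reached 1 FPKM, as 38 of the 46 members and 9795 of all genes did. The steps between low values put each library at 18.7 to 19.3 M reads (M, mega), a rough estimate behind every read number and 95% Poisson interval given. These intervals cover counting error only. The 7 macrophage markers summed to 2052 to 3054 FPKM in each library, the 7 dendritic cell markers to 3.73 to 17.6 FPKM, and the 5 measured of 7 lymphoid markers, of which 3 were at 0 in some library, to 0.22 to 0.85 FPKM. Single macrophage markers moved in both directions under these sums. Cd68 had 824 FPKM at 24 h, against 1896 FPKM at 0 h, and Adgre1 had 967 FPKM at 24 h, against 340 FPKM at 0 h. The 6 measured of 7 neutrophil markers summed to 58.6 to 327 FPKM, highest at 0 h. In 1 protocol field the labels name mDCs in place of macrophages. The 5 LPS response genes Tnf, Il1b, Il6, Nos2 and Acod1 summed to 8166 FPKM at 4 h and 3488 FPKM at 24 h, against 17.5 FPKM at 0 h. The median gene had a log2 difference of -0.70 at 4 h against 0 h, -0.11 at 24 h against 0 h and 0.49 at 24 h against 4 h, and the members' directions are to be read against these shifts.

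Within the family, Usp25 and Usp12 had the highest mean level per length. Usp25 averaged 98.7 FPKM over the 5 libraries and Usp12 averaged 45.2 FPKM. Usp8, Usp5, Usp4, Usp7, Usp47 and Usp19 followed with means of 21.4 to 29.5 FPKM, and their ranges over the time course overlapped. At 0 h the order was different: Usp5 had the highest level (43.6 FPKM), before Usp4 (33.5 FPKM) and Usp8 (24.9 FPKM). Summed over the 46 members, the family stood at 599.8 FPKM at 4 h, against 392 FPKM at 0 h. Usp25 made up 23.6% of the family sum at 4 h and Usp12 made up 18.01%. Without Usp25 and Usp12 the sum was 350.5 FPKM at 4 h, against 356 FPKM at 0 h. The FPKM of all genes summed to less at 4 h, so as a share of the library's FPKM the family made up 0.138% at 4 h, against 0.0754% at 0 h, and without Usp25 and Usp12 0.0806% at 4 h, against 0.0686% at 0 h. In bulk RNA a lower value from fewer cells of a type and from less RNA per cell cannot be told apart.

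**Figure D1:**
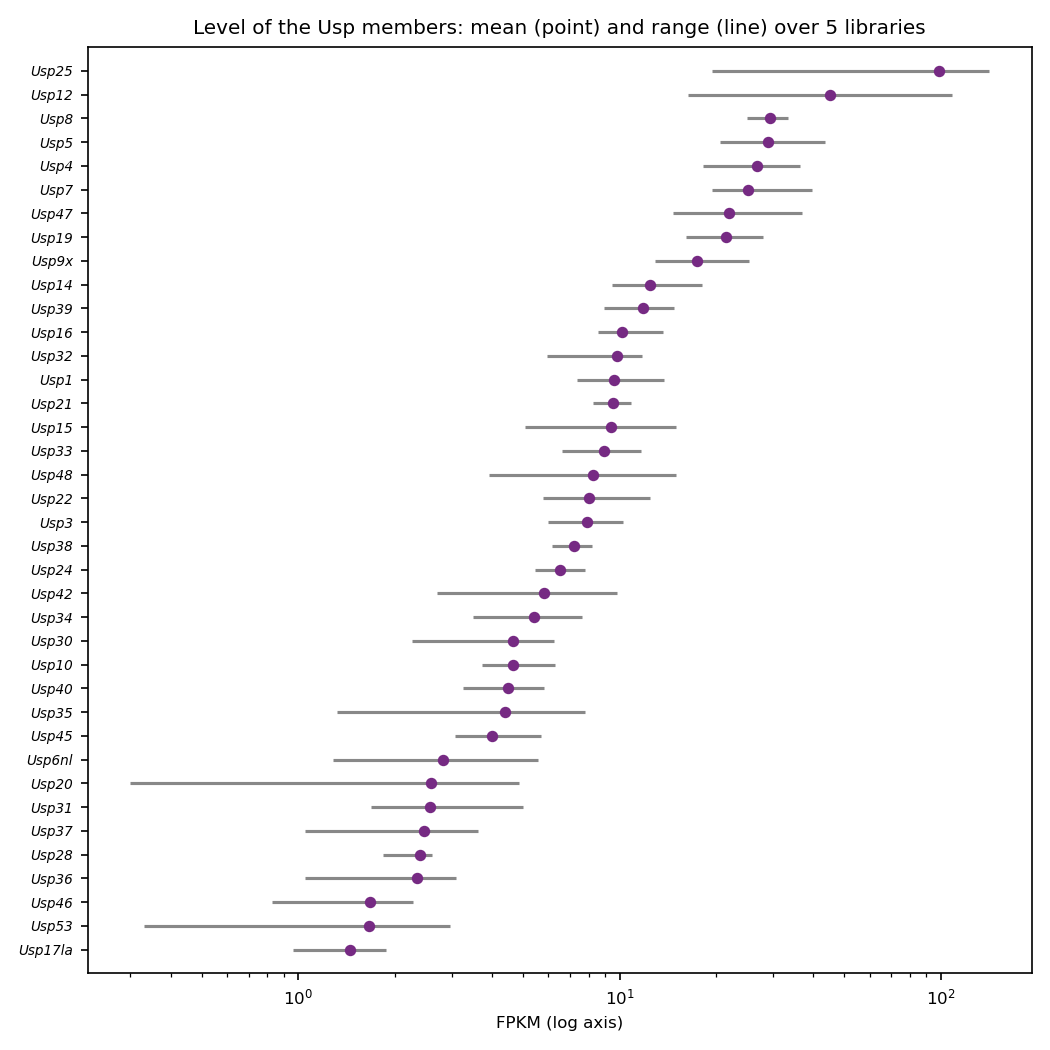
Mean FPKM (points) and range over the 5 libraries (lines) of the 38 members over the filter, on a log axis. Usp25 lies at the top with a mean of 98.7 FPKM, and the lines of most neighbours overlap.

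At 4 h of LPS, 6 members lay at least 2-fold above 0 h: Usp25, Usp12, Usp42, Usp15, Usp31 and Usp7. Another 4 of the 38 over the filter were at least 2-fold lower: Usp20, Usp48, Usp35 and Usp30. Among all 9795 genes the higher share was 12.2% and the lower share 38.1%. The members' higher share (15.8%) was near that background and their lower share (10.5%) was under it. Scaling changed this split. With libraries centred on the median gene 13 members were higher and 2 lower, with a trend by transcript length taken out 8 and 2, and with FPKM turned to TPM 10 and 5. The split of all genes moved as well, to 21.5% higher and 13.4% lower centred, 19.8% and 11.9% without the length trend, and 15.4% and 32.9% with TPM. With a pseudocount of 0.1 FPKM the members split evenly, 7 higher and 7 lower, beside 13.7% and 44.0% of all genes. At a 1.5-fold threshold they were 10 and 10, beside 17.2% and 54.1%. A pseudocount of 5 FPKM left 2 and 1, beside 9.34% and 20.2%, and a filter of 5 FPKM left 5 and 1, beside 15.3% and 35.5%. The members' median difference was -0.14, beside -0.70 for all genes, and it turned positive under centring (0.55), removal of the length trend (0.38) and TPM (0.074).

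Usp25 is a deubiquitinase known to act on TRAF proteins in innate and interleukin signalling (gene 30940; chromosome 16, 77013684 to 77116783, GRCm38.p6). It stood at 19.4 FPKM (0 h), 141 (4 h), 138 (8 h), 108 (12 h) and 86.9 (24 h). All 4 LPS libraries lay above the 0 h library, with the highest value at 4 h. The ratio to 0 h was 7.29 at 4 h and 4.49 at 24 h, and the log2 differences were 2.80 and 2.11. Counting error alone gave 139 to 144 FPKM at 4 h, against 18.5 to 20.3 FPKM at 0 h. Usp25 was at least 2-fold above 0 h at both 4 h and 24 h under each pseudocount and scaling tried. In the values as deposited it was the only such member, while centring added Usp34 (1.48 and 1.04) and Usp6nl (1.06 and 1.22), and TPM added Usp34.

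Usp12 belongs to the members that need the WD-repeat protein Wdr48 for full activity (gene 22217; chromosome 5, 146734809 to 146794956). It had 16.3 FPKM (0 h), 108 (4 h), 53.4 (8 h), 28.5 (12 h) and 19.7 (24 h). After the 4 h peak each later library lay below the one before, and the 24 h library was again close to the 0 h library. The ratio to 0 h was 6.63 at 4 h and 1.21 at 24 h, with log2 differences of 2.66 and 0.26. At 24 h against 4 h the difference was -2.40, and Usp12 was the only member at least 2-fold lower in that pair of libraries as deposited.

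Usp42, a deubiquitinase tied to p53, stood at 2.71 FPKM (0 h), 9.80 (4 h), 5.92 (8 h), 5.65 (12 h) and 5.08 (24 h). Usp15, an enzyme of the TGF-beta receptor pathway, had 5.09 FPKM (0 h), 15.02 (4 h), 9.34 (8 h), 7.83 (12 h) and 9.56 (24 h). Both had all 4 LPS libraries above the 0 h library, and at 24 h against 0 h the log2 difference was 0.71 for Usp42 and 0.79 for Usp15, short of the threshold.

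Usp31, whose human counterpart can restrain NF-kappaB, was at 1.90 FPKM (0 h), 5.01 (4 h), 1.73 (8 h), 1.68 (12 h) and 2.50 (24 h). Its 8 h and 12 h libraries were slightly below the 0 h library, so that 4 h alone stood out. Usp7, which acts on Mdm2 and p53, had 19.4 FPKM (0 h), 39.7 (4 h), 21.2 (8 h), 19.7 (12 h) and 25.2 (24 h). Usp7 lay exactly on the threshold at 4 h, with a log2 difference of 1. The 6 genes higher at 4 h stayed at least 2-fold higher under centring, TPM and removal of the length trend. With a pseudocount of 5 FPKM, Usp42 (0.94), Usp15 (0.99), Usp31 (0.54) and Usp7 (0.88) came under the threshold.

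Just outside the threshold on the high side were Usp47, a deubiquitinase of DNA repair, and Usp9x, a large enzyme with substrates in endosomal traffic. Usp47 had 18.3 FPKM (0 h), 36.9 (4 h), 19.3 (8 h), 14.7 (12 h) and 20.4 (24 h) (log2 difference of 0.98 at 4 h). Usp9x had 12.9 FPKM (0 h), 25.4 (4 h), 17.5 (8 h), 15.2 (12 h) and 16.0 (24 h) (0.93 at 4 h). Both had their highest value at 4 h and a lower one at 8 h, as Usp7 and Usp31 had.

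The member with the largest negative difference at 4 h among those over the filter was Usp20 (gene 74270; chromosome 2, 30982279 to 31022655), a relative of Usp33 with roles in receptor recycling. It stood at 3.92 FPKM (0 h), 0.30 (4 h), 1.43 (8 h), 2.46 (12 h) and 4.87 (24 h). The 4 h library was the lowest, each later library lay above the one before, and 24 h was the highest of the 5. The 4 h value was 0.077 of the 0 h value and rests on about 29 reads, with an interval of 0.20 to 0.44 FPKM, against 3.54 to 4.34 FPKM at 0 h. The log2 difference was -1.92 at 4 h against 0 h and 2.17 at 24 h against 4 h, the last a ratio of 16.2.

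Usp48, a nuclear deubiquitinase, had 15.01 FPKM (0 h), 3.92 (4 h), 4.41 (8 h), 7.0 (12 h) and 10.9 (24 h). All 4 LPS libraries lay below 0 h, and the difference was -1.70 at 4 h and -0.43 at 24 h. Usp35, a relative of Usp38, had 4.52 FPKM (0 h), 1.32 (4 h), 4.03 (8 h), 4.22 (12 h) and 7.82 (24 h), so that it was lowest at 4 h and highest at 24 h. Usp30, which sits in the outer mitochondrial membrane and opposes mitophagy, had 6.23 FPKM (0 h), 2.25 (4 h), 4.50 (8 h), 4.43 (12 h) and 5.86 (24 h). Its 4 h library was the only one under 4 FPKM. Usp20 and Usp48 were also at least 2-fold lower at 4 h with libraries centred (-1.22 and -1.01) and after removal of the length trend (-1.54 and -1.44). Usp35 (-0.55 and -0.75) and Usp30 (-0.46 and -0.69) were not, and with a pseudocount of 5 FPKM only Usp48 (-1.17) of these 4 passed the threshold.

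Just outside on the low side were Usp36, an enzyme of the nucleolus, and Usp5, which takes apart free ubiquitin chains. Usp36 had 3.06 FPKM (0 h), 1.05 (4 h), 1.87 (8 h), 2.64 (12 h) and 3.10 (24 h) (-0.99 at 4 h). Usp5 had 43.6 FPKM (0 h), 21.7 (4 h), 20.6 (8 h), 28.3 (12 h) and 31.2 (24 h) (-0.97 at 4 h). Usp36 was back at its 0 h level by 24 h, while Usp5 stayed below 0 h in all 4 LPS libraries.

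**Figure D2:**
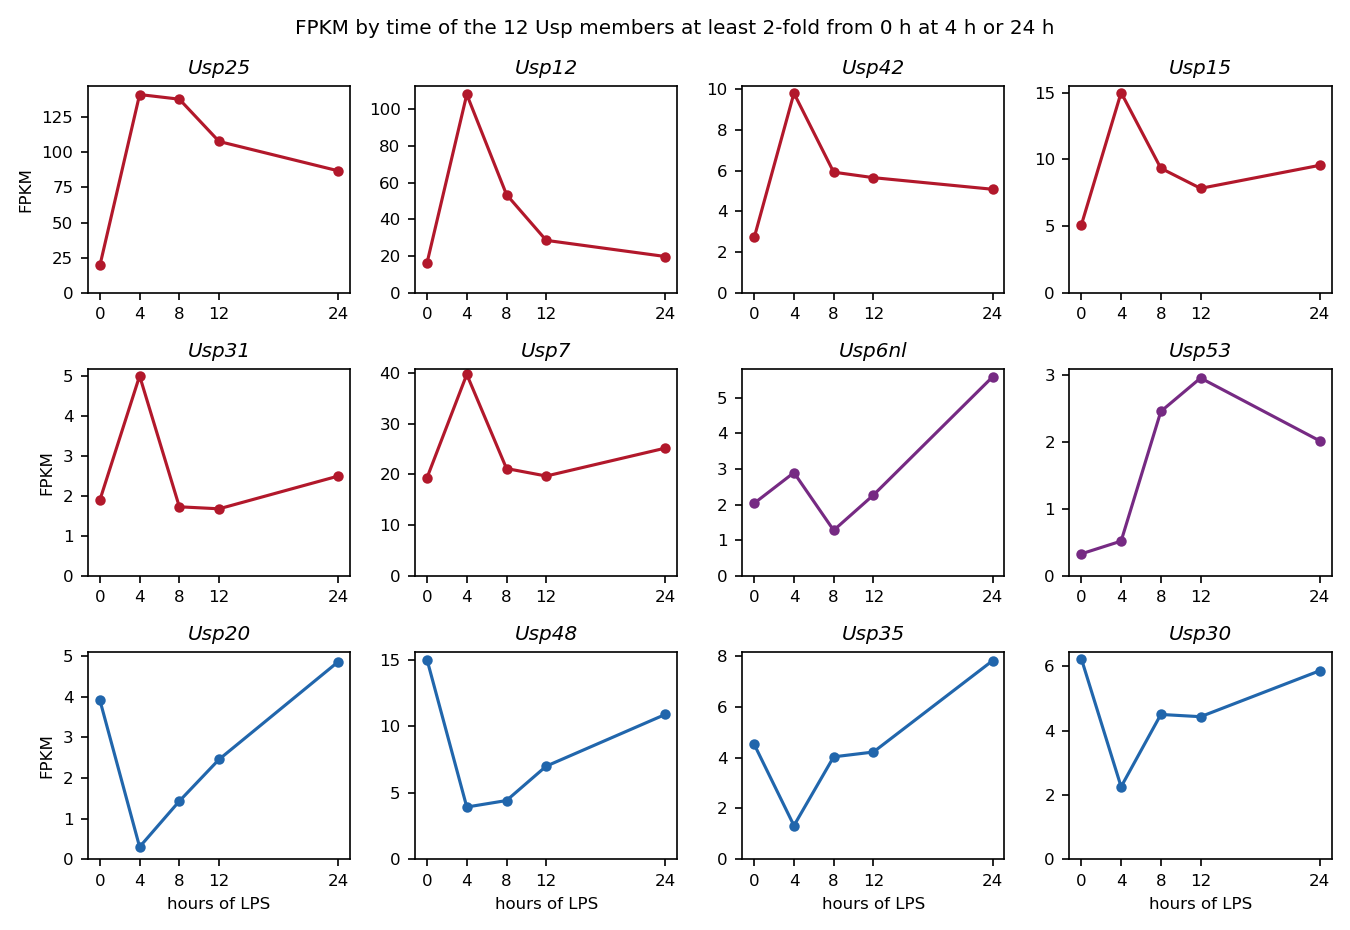
FPKM against hours of LPS for the 12 members over the filter that were at least 2-fold from 0 h at 4 h or 24 h, 1 library per point and each panel with its own scale from 0. Of the 10 members apart at 4 h, all were closer to 0 h at 24 h and 1, Usp25, was still apart. These 10 were picked by their 4 h difference from the same 0 h library. The difference of the median gene also moved, from -0.70 at 4 h to -0.11 at 24 h. The same count over all genes was not made, so no return of these members is read from it.

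The 250 bases before the annotated start are shown for Usp12 and Usp20, which had large differences in opposite directions at 4 h and whose windows lie wholly outside the annotated gene. Sequences are from RefSeq (GRCm38.p6), 5′ to 3′ on the strand of the gene, with every match to GGGCGG, the GC box, on either strand in capitals.
Usp12, chr5:146794957-146795206, minus strand: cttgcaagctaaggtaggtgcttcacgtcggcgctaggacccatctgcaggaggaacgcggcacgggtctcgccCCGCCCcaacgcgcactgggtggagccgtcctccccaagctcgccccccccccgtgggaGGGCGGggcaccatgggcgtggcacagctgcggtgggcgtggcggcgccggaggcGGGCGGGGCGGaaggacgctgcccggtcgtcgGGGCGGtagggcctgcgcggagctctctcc
Usp20, chr2:30982029-30982278, plus strand: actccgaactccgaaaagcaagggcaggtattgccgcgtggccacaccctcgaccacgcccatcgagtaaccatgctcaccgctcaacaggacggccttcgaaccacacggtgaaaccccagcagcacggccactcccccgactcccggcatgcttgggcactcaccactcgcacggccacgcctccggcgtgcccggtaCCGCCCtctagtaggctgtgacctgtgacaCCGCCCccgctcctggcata
The Usp12 window holds 5 GC boxes and the Usp20 window 2, and 74.8% of the bases are G or C before Usp12 and 65.6% before Usp20. Neither window held, on either strand, the letters searched for NF-kappaB, the interferon response element, AP-1, the E-box, the CRE or the CCAAT box.

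Over the 37 windows of the 36 members with an entry, 70.3% held a GC box, beside 58.0% of the 9810 windows of genes over the filter and 32.7% of all 32851 windows. NF-kappaB was searched by a short form of its site, GGG and TTTCC around any 2 bases, which was in 0 of the 37 member windows, beside 1.56% of those of genes over the filter and 1.41% of all windows. The interferon element was searched as a pair of GAAA around any 2 bases, which was in 1 window, that of Usp49, beside 2.99% and 2.98%. AP-1 was searched as TGANTCA, which was in the windows of Usp31 and Usp38, beside 4.55% and 6.75%. The E-box CACGTG was in the windows of Usp4, Usp6nl, Usp16 and Usp31, or 10.8%, beside 8.74% and 6.02%. The CRE, searched as TGACGTCA, was in 0 member windows, beside 2.73% and 1.55%. The CCAAT box, by these letters, was in 21.6%, beside 35.0% and 33.8%. The median ratio of observed to expected CpG was 0.85 in member windows, beside 0.74 in those of genes over the filter. A match of letters is a description and no binding site, and the windows hold no distant elements.

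At 24 h of LPS, 3 members lay at least 2-fold above 0 h, Usp25, Usp53 and Usp6nl, and 0 were at least 2-fold lower. Among all genes 11.3% were higher and 14.5% lower. The members' median difference was 0.27, beside -0.11 for all genes, and it was 0.38 with libraries centred and 0.18 with the length trend removed. The neutrophil markers, 6 measured of 7, summed to 58.6 FPKM at 24 h, against 327 FPKM at 0 h, with Mpo at 0 at 24 h. Ly6g of the same list went the other way, with 3.71 FPKM at 24 h, against 0.12 FPKM at 0 h. The part of these markers in the members' 24 h values was not tested.

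Usp53, a protein of tight junctions (gene 99526; chromosome 3, 122931486 to 122984900), had 0.33 FPKM (0 h), 0.52 (4 h), 2.46 (8 h), 2.96 (12 h) and 2.02 (24 h). The 4 h library was close to 0 h, and the values were several-fold higher from 8 h on, later than in Usp25 or Usp12. The ratio of 24 h to 0 h was 6.12, with an interval of 1.77 to 2.30 FPKM at 24 h, against 0.24 to 0.45 FPKM at 0 h. Since the level was low, the log2 difference was 1.18, and it was 0.97 with the length trend removed and 0.40 with a pseudocount of 5 FPKM. Usp6nl, the Rab regulator (gene 98910; chromosome 2, 6322757 to 6448296), had 2.04 FPKM (0 h), 2.90 (4 h), 1.28 (8 h), 2.27 (12 h) and 5.59 (24 h). Its 24 h library was the highest and its 8 h library the lowest. The log2 difference at 24 h was 1.12, and 0.82 with the length trend removed.

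Nearest the threshold at 24 h from the other side were Usp34, an enzyme linked to Wnt signalling, and Usp15. Usp34 had 3.50 FPKM (0 h), 6.73 (4 h), 3.93 (8 h), 5.23 (12 h) and 7.61 (24 h), high at 4 h and again at 24 h (log2 difference of 0.94 at 24 h). On the low side no member came near. Usp17la, 1 of a set of near-identical gene copies whose reads may be divided by estimate, had 1.88 FPKM (0 h), 1.51 (4 h), 1.58 (8 h), 1.29 (12 h) and 0.96 (24 h) (-0.56). Usp14, a deubiquitinase of the proteasome, had 18.1 FPKM (0 h), 11.3 (4 h), 9.48 (8 h), 10.4 (12 h) and 12.7 (24 h) (-0.48). Usp14 stayed below 0 h in all 4 LPS libraries, as did Usp5, Usp10, Usp17la, Usp30, Usp39 and Usp48 of the members over the filter.

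**Figure D3:**
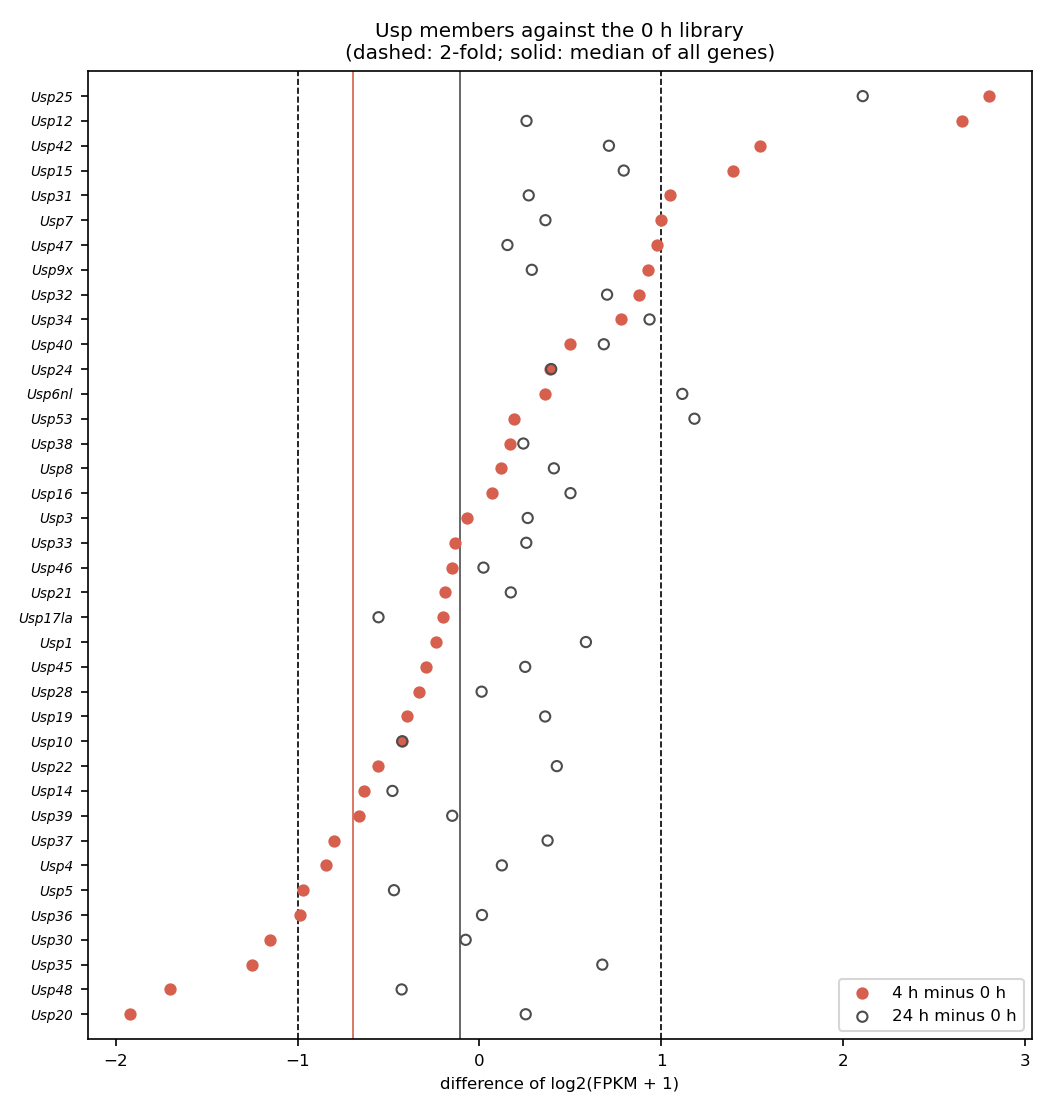
Log2 difference of FPKM + 1 for each of the 38 members over the filter, at 4 h and at 24 h against 0 h, with dashed lines at the 2-fold threshold. Values spread from -1.92 (Usp20) to 2.80 (Usp25) at 4 h, and at 24 h only Usp25, Usp53 and Usp6nl lie beyond the lines.

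Between 24 h and 4 h, 6 members were at least 2-fold higher at 24 h (Usp20, Usp35, Usp48, Usp37, Usp30 and Usp36) and 1 was lower (Usp12), beside 25% and 8.21% of all genes. The median difference was 0.34, beside 0.49 for all genes. Against the shift of the median gene the split turned round in members and in all genes alike. After centring 2 members were higher and 8 lower, and without the length trend 2 and 6. With TPM the split kept its direction in both, with 7 members higher and 3 lower. All genes had 9.65% higher and 15.3% lower after centring, 9.82% and 14.9% without the length trend, and 24.4% and 10.7% with TPM. Usp20 and Usp35 were at least 2-fold higher at 24 h in each of these scalings, and Usp12 at least 2-fold lower. Usp37, an enzyme of cell cycle proteins, had 2.57 FPKM (0 h), 1.05 (4 h), 2.03 (8 h), 3.05 (12 h) and 3.63 (24 h). It was lowest at 4 h and highest at 24 h, a ratio of 3.46 and a log2 difference of 1.18, which was 0.69 with libraries centred.

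In the values as deposited, the times of the extremes differed from those of all genes. Of the 38 members 20 (52.6%) had their highest value at 24 h, beside 24.5% of all genes, and 7 (18.4%) had it at 0 h, beside 48.7%. No margin was asked, in members or in all genes, so near-ties are counted. Usp24 had 7.81 FPKM at 24 h, against 7.77 FPKM at 4 h. Usp36 had 3.10 against 3.06 FPKM at 0 h and Usp46 2.27 against 2.22 FPKM at 0 h, all with overlapping counting intervals. The highest value was at 4 h in 9 members (23.7%, beside 12.4%), at 12 h in 2 and at 8 h in 0. The lowest value was at 4 h in 13 members (34.2%, beside 46.1%), at 0 h in 11, at 8 h in 8, at 12 h in 5 and at 24 h in 1, which was Usp17la. These counts moved with the scaling: with libraries centred 22 members were highest at 4 h and 7 at 24 h, and without the length trend 19 and 8. All genes were not counted in this way under those scalings, so these counts have no background beside them.

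By role, the list of members known from innate signalling had the highest median difference at 4 h. The role lists were written with earlier results of these data known, so this order is a description only. Of Usp4, Usp15, Usp21, Usp25, Usp31 and Usp38, 3 were at least 2-fold higher at 4 h and 0 lower, with a median of 0.61. Over all genes the shares were 12.2% and 38.1% and the median -0.70, and the role counts that follow are to be read beside these values. The other 3 of that list were not: Usp4, a relative of Usp15, had 18.2 FPKM at 4 h, against 33.5 FPKM at 0 h, Usp21 had 8.25 against 9.54 FPKM and Usp38 had 7.74 against 6.79 FPKM. Of the 4 members of organelles and RNA, Usp30 was lower at 4 h, and the median was -0.82. In that list Usp39, a splicing factor without protease activity, had 8.93 FPKM at 4 h, against 14.7 FPKM at 0 h, and Usp19, anchored in the endoplasmic reticulum, had 16.1 against 21.5 FPKM.

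The list of members acting on histones, DNA repair or p53, which did not include Usp42, had 10 over the filter, of which Usp7 was higher and Usp48 lower at 4 h, with a median of -0.26. The other 8 stayed under the threshold on log2(FPKM + 1) at 4 h and 24 h against 0 h: Usp47, the histone enzymes Usp3, Usp16 and Usp22, the repair enzymes Usp1 and Usp45, and Usp10 and Usp28. Among these Usp1, Usp3, Usp16, Usp22 and Usp45 had their highest value at 24 h, Usp1 with 13.8 FPKM, against 8.84 FPKM at 0 h, and Usp16 with 13.7 FPKM, against 9.38 FPKM at 0 h. Usp22, the deubiquitinase of the SAGA coactivator, had 12.4 FPKM at 24 h, against 5.78 FPKM at 4 h. Of the Wdr48-dependent members, Usp1 and Usp46 did not follow Usp12: at 4 h Usp1 had 7.35 FPKM, against 8.84 FPKM at 0 h, and Usp46 had 1.90 FPKM, against 2.22 FPKM at 0 h. In the endosomal list Usp20 was the only one apart at 4 h, and Usp8, Usp9x, Usp32 and Usp33 were not. Usp8, which serves the sorting of receptors, kept to 24.9 to 33.4 FPKM over the 5 libraries, and Usp33 to 6.63 to 11.7 FPKM. Usp32 had 11.7 FPKM at 4 h, against 5.92 FPKM at 0 h (0.88). Usp24 (5.46 to 7.81 FPKM) and Usp40 (3.25 to 5.83 FPKM) were within 2-fold throughout.

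The 8 members under the filter were Usp2, Usp11, Usp13, Usp27x, Usp29, Usp44, Usp49 and Usp54. Usp2, a gene with circadian expression in other tissues, had 1.47 FPKM (0 h), 0.06 (4 h), 0.36 (8 h), 0.56 (12 h) and 0.66 (24 h). Its 4 h value rests on about 4 reads, against about 107 at 0 h, with intervals of 0.015 to 0.14 FPKM at 4 h and 1.2 to 1.77 FPKM at 0 h. Its log2 difference of -1.22 would count as lower were there no filter. Usp11 (0.23 to 1.30 FPKM), Usp27x (0.34 to 1.03 FPKM), Usp49 (0.45 to 1.37 FPKM) and Usp54 (0.48 to 0.96 FPKM) were low throughout. Usp13, Usp29 and Usp44 were at most 0.07 FPKM and each was listed at 0 in a library.

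Usp genes are long, and length went with the difference at 4 h. The longest coding transcript had a median of 4760.5 nt in the 38 members (2244 to 12200 nt) and 3034 nt in the 9751 genes with a length, and 28 of the 38 were in the upper 3 deciles of length. Over all genes the median log2 difference at 4 h against 0 h ran from -1.29 in the shortest decile to -0.06 in the longest. Across the members Spearman's rho of length and difference was 0.40 at 4 h against 0 h, 0.45 at 24 h against 0 h and -0.17 at 24 h against 4 h, beside 0.29, 0.32 and -0.04 across all genes. These correlations are across genes of the same libraries, which are not independent replicates. The part of length in the members' values was not tested beyond the removal of the trend, under which the members' median at 4 h was 0.38.

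**Figure D4:**
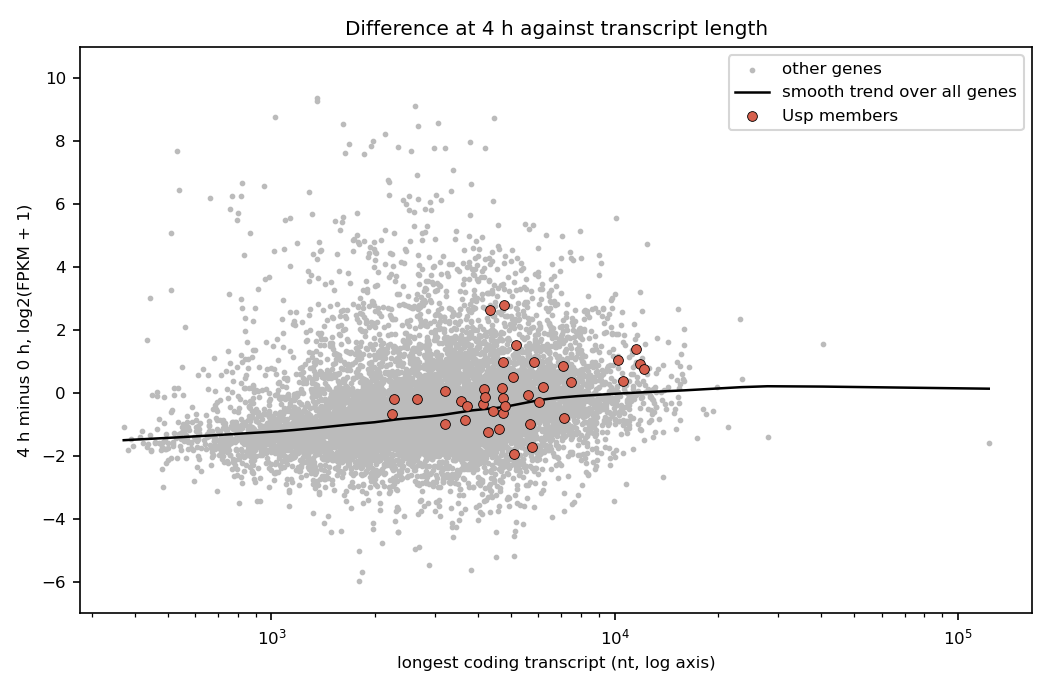
Log2 difference at 4 h against 0 h by length of the longest coding transcript (log axis). Points are all genes with a length and the members over the filter, and the line is a smooth trend over all genes. Medians by length decile, not drawn, run from -1.29 to -0.06. Usp25 and Usp12 lie well above and Usp20 and Usp48 well below the trend at their lengths.

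Partner proteins of the family, cofactors that switch on or hold the proteases, were measured as a list of 12, all over the filter. At 4 h 1 was at least 2-fold higher (8.33%, beside 12.2% of all genes) and 1 lower (8.33%, beside 38.1%), with a median of 0.13. Centring put 6 higher and 0 lower, beside 21.5% and 13.4% of all genes, and removal of the length trend 4 and 0, beside 19.8% and 11.9%. Atxn7l1, a relative of the SAGA subunit Atxn7, had 33.4 FPKM at 4 h, against 10.2 FPKM at 0 h, and Eny2, a subunit of the SAGA deubiquitinase module, had 2.88 FPKM at 4 h, against 7.15 FPKM at 0 h. At 24 h Atxn7l1 (28.0 against 10.2 FPKM) and Atxn7l3 (36.6 against 17.4 FPKM) were higher and 0 were lower, with a median of 0.46, beside 11.3% and 14.5% of all genes. Wdr48, the activator of Usp12, had 10.2 FPKM (0 h), 18.04 (4 h), 10.8 (8 h), 9.74 (12 h) and 12.5 (24 h), highest at 4 h with a log2 difference of 0.77, short of the threshold. Wdr20 of the same list went the other way at 4 h. It had 6.03 FPKM (0 h), 4.15 (4 h), 5.48 (8 h), 6.14 (12 h) and 9.51 (24 h), lowest at 4 h with a log2 difference of -0.45.

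Deubiquitinases of other families, 32 of 34 measured over the filter, held 4 higher and 8 lower at 4 h, with a median of -0.49. The higher share was 12.5%, at the 12.2% of all genes, and the lower share 25%, under their 38.1%. Centring put 9 higher and 4 lower, beside 21.5% and 13.4% of all genes, and removal of the length trend 8 and 3, beside 19.8% and 11.9%. Tnfaip3, the ubiquitin-editing brake on NF-kappaB known as A20, had 548 FPKM at 4 h, against 6.94 FPKM at 0 h. Zufsp, a protease of long chains in DNA repair, had 68.2 FPKM at 4 h, against 6.37 FPKM at 0 h. Lower were Fam63a, a trimmer of chains, with 5.59 FPKM at 4 h, against 44.2 FPKM at 0 h, and its relative Fam63b with 2.15 against 10.95 FPKM. At 24 h 5 were higher (15.6%, beside 11.3% of all genes) and 3 lower (9.38%, beside 14.5%), with a median difference of 0.28. Tnfaip3 had 61.7 FPKM at 24 h, against 6.94 FPKM at 0 h. Otulin, the protease of linear chains, had 20.4 against 53.7 FPKM. Tnfaip3 thus had a larger ratio than any Usp member at 4 h.

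Genes that supply ubiquitin, its precursors and the E1 and E2 enzymes, were 35 of 37 over the filter, of which 5 were higher and 4 lower at 4 h (median difference of -0.29). The higher share was 14.3%, near the 12.2% of all genes, and the lower share 11.4%, under their 38.1%. Centring put 14 higher and 0 lower, beside 21.5% and 13.4% of all genes, and removal of the length trend 12 and 0, beside 19.8% and 11.9%. Ube2l6, the E2 of ISG15, had 118 FPKM at 4 h, against 26.3 FPKM at 0 h, and Uba6, an alternative E1, had 11.5 FPKM at 4 h, against 2.67 FPKM at 0 h. Among the lower genes Rps27a, which encodes ubiquitin joined to a ribosomal protein, had 288 FPKM at 4 h, against 812 FPKM at 0 h, a difference that did not reach 2-fold with libraries centred. At 24 h 1 was higher (2.86%, beside 11.3% of all genes), Ube2l6 with 158 FPKM, against 26.3 FPKM at 0 h. Another 3 were lower (8.57%, beside 14.5%), and the median was -0.05.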

How the data were processed

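Whole-RNA libraries of bone marrow-derived macrophages at 5 times of LPS, 1 library each, were compared. The authors deposited 1 table of FPKM values, per the file headers. The submitters' processing notes name Bowtie2, RSEM and GRCm38, with no version; for annotation and filters, the step is not given in the sources used here. Because FPKM is relative to the library, the value of a gene depends on the reads that other genes take, and reads shared by gene copies may be divided by estimate.

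Differences were taken on log2(FPKM + 1), for genes with a mean of at least 1 FPKM, and counted from 2-fold, a tie included. Alternatives were pseudocounts of 0.1 and 5 FPKM, a filter of 5 FPKM or none, a 1.5-fold threshold, centring on the median gene, TPM scaling, removal of a lowess trend (fraction 0.3) on log10 transcript length (GENCODE M21), and Usp6nl left out. Depth was estimated from steps between low values, searched from 5 to 60 M reads, with the step and a length reduction chosen for the best match. Of the 119 to 149 values used per library, 53.5% to 62.4% came out as whole reads, beside 19.8% to 21.5% expected at a fixed step, so read numbers and their 95% Poisson intervals are approximate. The scripts were tested on simulated data.

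Members and lists were chosen with earlier results of these data known. All members are named; 5 values are given for members at least 2-fold apart in 4 h or 24 h against 0 h or in 24 h against 4 h and for those nearest the threshold, and of the other lists those with the largest differences, except 1 gene that is not reported here. Levels of Usp2, the role members, Wdr48 and Wdr20 were added after their values were seen. Promoter windows are RefSeq's (GRCm38.p6); no protein sequence was used here. Python 3.11.15, numpy 2.4.6, pandas 2.3.3, scipy 1.17.1, statsmodels 0.14.6 and matplotlib 3.10.9 were used.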

Additional observations from a re-analysis of the deposited data

How the results depend on the processing

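Of 180 alternative values for the counts and medians, 111 kept their direction and size (counts within 1.5 times, medians within 0.1), 63 moved and 6 reversed. Of 666 for single members 589 kept their side of the threshold, 47 newly passed it, 30 no longer did and 0 reversed. Without a filter and with Usp6nl left out each count and median stayed within these limits. Causes were not tested.

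At a 1.5-fold threshold 10 Usp members were higher and 10 lower at 4 h against 0 h, 10 higher at 24 h against 0 h, and 12 higher and 8 lower at 24 h against 4 h. With TPM, 10 were higher at 4 h and 3 lower at 24 h against 4 h; medians were 0.074 at 4 h and 0.38 at 24 h against 0 h and 0.21 at 24 h against 4 h; 4 partners were higher and 0 lower at 4 h, 2 ubiquitin supply genes were lower at 4 h and 2 higher at 24 h.

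With libraries centred, 13 Usp members were higher and 2 lower at 4 h, and 2 higher and 8 lower at 24 h against 4 h; medians were 0.55 at 4 h and 0.38 at 24 h against 0 h and -0.15 at 24 h against 4 h; 6 members were lowest and 22 highest at 4 h and 7 highest at 24 h. At 4 h 6 partners were higher and 0 lower, 9 other deubiquitinases higher and 4 lower, and 14 supply genes higher and 0 lower, with 2 higher at 24 h.

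With the length trend removed, 2 Usp members were lower at 4 h, 1 higher at 24 h against 0 h, and 2 higher and 6 lower at 24 h against 4 h; medians were 0.38 at 4 h and -0.15 at 24 h against 4 h; 7 were lowest and 19 highest at 4 h and 8 highest at 24 h. At 4 h 4 partners were higher and 0 lower, and 8 other deubiquitinases higher and 3 lower (24 h: 3 and 0). Of the supply genes 12 were higher and 0 lower at 4 h (24 h: 2 higher). All genes had 12.2% higher and 9.64% lower at 24 h against 0 h in this setting.

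With a filter of 5 FPKM, 1 Usp member was lower at 4 h, 1 higher at 24 h against 0 h and 1 higher at 24 h against 4 h; medians were 0.10 at 4 h and 0.22 at 24 h against 4 h; 7 were lowest at 4 h and 12 highest at 24 h; 0 partners were lower at 4 h and 3 other deubiquitinases higher at 24 h. All genes over that filter had 15.3% higher and 35.5% lower at 4 h, and 13.1% and 14.6% at 24 h against 0 h. At 24 h against 4 h they had 22.1% and 9.72%. With a pseudocount of 0.1 FPKM 7 Usp members were higher and 7 lower at 4 h, and 2 partners higher and 2 lower, beside 13.7% of all genes higher and 44.0% lower. With a pseudocount of 5 FPKM 2 Usp members were higher and 1 lower at 4 h. At 24 h 1 was higher against 0 h and 1 higher against 4 h. All genes had 9.34% higher and 20.2% lower at 4 h, and 7.30% and 8.59% at 24 h against 0 h. At 24 h against 4 h they had 8.57% and 5.72%. With this pseudocount 0 partners were lower at 4 h and 1 higher at 24 h. Of the other deubiquitinases 2 were higher and 1 lower at 24 h.

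Alternatives for the other lists and for the times of extremes were chosen after seeing the data. For the times of extremes, all genes were not counted under these alternatives. No paired analysis was possible because each time has 1 library, and for the same reason none was left out. Low members rest on few reads, such as about 29 for Usp20 at 4 h.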
